A study of Gallus gallus with 88 samples.

Results

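*PRR33*, the gene of a proline-rich protein, was followed across hind muscle (M. gastrocnemius) of 88 broiler chickens, with 1 animal per Affymetrix chicken gene array. Its members are the 2 probe sets that the array annotation assigns to *PRR33*, 15514807 and 15514810, of 20706 probe sets tested. The gene was chosen by its measured difference between H13 and C13 embryos, where 15514807 was 1 of the 2 probe sets past the threshold of an adjusted p under 0.05. Every contrast that holds H13 or C13 arrays is therefore given below as a description without a test, and the other contrasts are tested.

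All eggs came from a commercial broiler line and were kept at 37.8 °C outside the treatment window. Warmed (H10), control (C10) and cooled (L10) eggs had 38.8, 37.8 and 36.8 °C during ED7–10 and gave 8 embryos each at ED10. The same 3 temperatures during ED10–13 gave H13, C13 and L13, with 8 embryos each at ED13. The H10 and H13 eggs also had a higher relative humidity during the window, so warmth and humidity cannot be told apart. Chickens at D35 came from H10, L10, H13 and L13 eggs (8 each) and from C10 and C13 eggs (2 and 6), and the latter 8 form 1 control group that was never warmed or cooled.

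Little is known of what the PRR33 protein does. In human its gene lies in a cluster with genes of the fast skeletal muscle troponins, between *LSP1* and *TNNT3*. Troponin is the calcium switch of the thin filament: troponin C binds calcium, troponin I blocks the interaction of actin and myosin, and troponin T anchors the complex on tropomyosin. Fast and slow fibres use different copies of these subunits. Leg muscle of the chick forms primary fibres first and secondary fibres along them later in incubation. In the chicken gene table (GRCg7b), *PRR33* lies next to *TNNT3*, the gene of fast troponin T, overlaps *LSP1P1*, and is followed after 1 further gene by *TNNI2*, the gene of fast troponin I.

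Several facts of the series bear on all values. The deposited values are log2 signals. Array medians ran from 7.90 to 8.29 for embryos but only from 6.64 to 6.98 at D35, and levels were therefore never set against each other across stages. Of 32 measured sarcomere genes, 24 in embryos and 22 at D35 had a mean above the 95th percentile of the background control probe sets (9.71 and 9.49). Of 18 measured epidermis genes, 3 in embryos and 0 at D35 did. Of all 20706 probe sets, 4332 in embryos and 2236 at D35 did. The mean of the epidermis list ranged from 5.95 to 10.15 between embryo arrays. By their animal numbers the embryos fall into 2 runs, with every H embryo in run 1, every L embryo in run 2 and the controls of each day split 4 and 4. The D35 records likewise hold 2 ascending series of numbers, with the H chickens and 4 controls in series 1 and the L chickens and 4 controls in series 2. What runs and series stand for is not stated. In a bulk sample, fewer muscle cells and less RNA per cell cannot be told apart.

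At ED10 *PRR33* was dim in all 3 groups. With 15514807, the H10 embryos had log2 signals of 6.50, 6.66, 6.46, 6.61, 6.26, 6.44, 6.64 and 6.80. The C10 embryos had 6.10, 6.35, 6.65 and 6.45 in run 1 and 6.38, 6.28, 5.88 and 6.32 in run 2. The L10 embryos had 6.41, 6.47, 6.66, 6.39, 6.29, 6.49, 6.18 and 5.96. The 3 groups overlapped over most of their range, and H10 held the highest embryo. Group means were 6.55 ± 0.16 in H10, 6.30 ± 0.23 in C10 and 6.36 ± 0.21 in L10 (SD, n = 8 each).

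With 15514810 the ED10 means were lower, at 6.02 ± 0.29 in H10, 5.81 ± 0.31 in C10 and 5.87 ± 0.31 in L10 (SD, n = 8 each). Of the 23 background control probe sets, 9 had an embryonic mean above that of either *PRR33* probe set, and the median of the 23 was 5.61. None of the 48 embryos, those of ED13 included, reached the background 95th percentile of 9.71 with either probe set (0 of 48, highest 8.84 and 7.98). Most probe sets lay below it too, since 4332 of 20706 had an embryonic mean above it. Embryonic differences of *PRR33* are therefore given as differences of log2 signal and not as folds. The deviations of the 2 probe sets from their group means correlated with r = 0.11 over the 24 ED10 embryos and with r = 0.86 over the 24 ED13 embryos. At ED10 the probe sets thus shared little of the differences between embryos of a group.

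At ED13 every group stood higher. Probe set 15514807 gave 8.57, 8.35, 8.37, 8.33, 8.84, 8.26, 7.96 and 8.54 in the H13 embryos. The C13 embryos had 8.33, 8.04, 7.57 and 7.79 in run 1 and 7.54, 7.54, 7.44 and 7.44 in run 2. The L13 embryos had 7.08, 6.87, 7.06, 7.33, 7.05, 7.65, 7.68 and 7.43. The lowest ED13 embryo, at 6.87, still lay above the highest ED10 embryo, at 6.80. Among the controls, the 4 C13 embryos of run 1 all lay above the 4 of run 2.

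**Figure D1:**
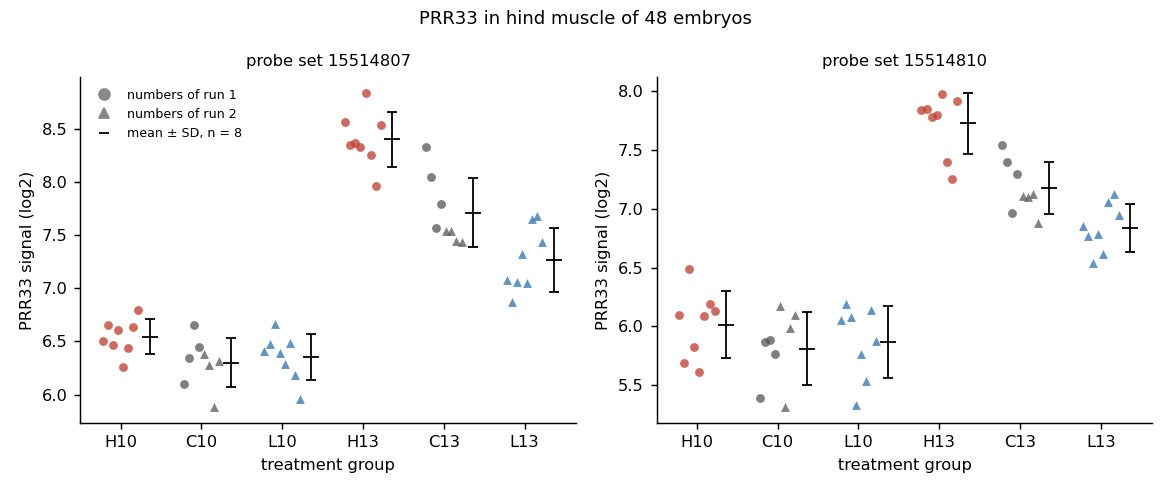
*PRR33* log2 signal (y axis) of each of 48 embryos by treatment group (x axis), for each probe set, with circles for animal numbers of run 1, triangles for run 2 and bars for the mean ± SD of 8 embryos. The ED10 groups overlap, and at ED13 the means fall from H13 (8.40) over C13 (7.71) to L13 (7.27) with 15514807.

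The order of the embryonic group means with 15514807 was C10, L10, H10, L13, C13 and H13, and 15514810 gave the same order. The ED13 means were 8.40 ± 0.26 in H13, 7.71 ± 0.32 in C13 and 7.27 ± 0.30 in L13 with 15514807, and 7.72 ± 0.26, 7.18 ± 0.22 and 6.84 ± 0.20 with 15514810 (SD, n = 8 each). Of the neighbours in this order, C10 and L10, L10 and H10, L13 and C13, and C13 and H13 had overlapping ranges, while H10 and L13 did not overlap.

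The contrast of cooled embryos between the days, whose difference holds no H13 or C13 array, tested the rise. As in every embryo contrast, the limma SE, interval and p use a spread pooled over all 48 embryos, H13 and C13 included. They are therefore not independent of the choice of the gene. The exact permutation test given below used the L10 and L13 embryos alone. *PRR33* was higher in L13 than in L10 by 0.91 on the log2 scale with 15514807 (SE 0.13, 95% interval 0.66 to 1.17, limma with Benjamini-Hochberg adjustment over all probe sets, adjusted p = 1.8124e-07). With 15514810 the difference was 0.97 (SE 0.13, limma adjusted p = 1.7916e-07). All 8 L13 embryos lay above all 8 L10 embryos with either probe set, and a two-sided exact permutation test gave p = 1.5540e-04, the smallest it can give with 8 against 8. Of all probe sets, 9.76% passed the threshold upwards and 15.2% downwards in this contrast, so a call alone is common here, but only 2.25% had a larger positive difference than 15514807.

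The same step is described for the other temperatures. From C10 to C13 the difference was 1.41 with 15514807 and 1.37 with 15514810, in a contrast where 28.2% of probe sets passed the threshold. Within run 1 alone it was 1.55 and within run 2 alone 1.27 with 15514807. From H10 to H13 it was 1.86 and 1.71, where 26.6% of probe sets passed. No ED13 embryo of these groups overlapped with the ED10 embryos of the same temperature. The step was 0.91 in the cooled embryos and 1.86 in the warmed ones, and since these contrasts hold H13 arrays the difference of the steps was not tested.

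*PRR33* stood out between the ED13 groups, as the way it was chosen requires. H13 exceeded C13 by 0.69 (SE 0.13) with 15514807 and by 0.55 (SE 0.13) with 15514810, where 0.00966% of all probe sets passed the threshold. All 8 H13 embryos lay above the C13 mean with either probe set, but the ranges overlapped, since C13 embryo 39 reached 8.33 and H13 embryo 32 only 7.96 with 15514807. L13 lay below C13 by 0.44 with 15514807 (log2 difference -0.44, SE 0.13) and by 0.34 with 15514810 (-0.34, SE 0.13), where 0.0193% of probe sets passed, and all 8 L13 embryos lay below the C13 mean. H13 exceeded L13 by 1.13 and 0.89, without overlap, where 2.90% of probe sets passed. The warmed and the cooled embryos thus lay on opposite sides of the controls with both probe sets.

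Part of these differences went with the number runs. Against the 4 C13 embryos of its own run, H13 exceeded the controls by 0.47 (SE 0.14) with 15514807 and by 0.43 (SE 0.16) with 15514810. Against the 4 C13 embryos of their own run, the L13 embryos lay lower by 0.22 with either probe set (log2 difference -0.22, SE 0.14 with 15514807 and 0.16 with 15514810). Each direction stayed the same, and with 15514807 the L13 difference shrank from 0.44 to 0.22. With the run as a block in the fit, the differences with 15514807 were 0.54 for H13 and -0.29 for L13 (SE 0.13 each). Of the C13 embryos, the 4 of run 1 averaged 7.93 ± 0.33 and the 4 of run 2 averaged 7.49 ± 0.06 (SD) with 15514807.

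Gene lists of other cell types also differed between the same groups, which is described without a test. All 18 epidermis genes were lower in H13 than in C13 (0 above 0, median difference -1.03), and the epidermis mean was 7.94 ± 1.22 in H13 and 8.91 ± 1.28 in C13 (SD, n = 8 each), with ranges of 6.04 to 9.80 and 6.68 to 10.15. With that mean as a covariate, *PRR33* in H13 exceeded C13 by 0.63 with 15514807. Of 32 sarcomere genes, 30 lay higher in H13 than in C13, with a median difference of 0.16 against 0.01 over all probe sets. With the sarcomere mean as a covariate the *PRR33* difference was 0.59. Higher too lay all 5 adipocyte genes (median 0.33), 5 of 5 tendon (0.24), 13 of 17 cartilage (0.16), 10 of 10 myogenic (0.14) and 8 of 8 erythroid genes (0.11). So did 10 of 10 endothelium (0.09) and 20 of 21 connective tissue genes (0.08). Nerve and leukocyte lists had 5 of 10 and 3 of 9 higher, and of all probe sets 53.4% lay higher. Means over all 48 embryos, those of ED10 included, lay above the background 95th percentile for only 1 of 5 adipocyte, 3 of 17 cartilage and 3 of 10 endothelium genes. Of tendon, myogenic, erythroid and connective tissue genes, 4 of 5, 8 of 10, 4 of 8 and 19 of 21 had such means. Between L13 and C13, 13 of 32 sarcomere genes lay higher and 19 lower with a median of -0.04, and 10 of 18 epidermis genes lay higher. With the epidermis or the sarcomere mean as a covariate, the *PRR33* difference between L13 and C13 was -0.45 or -0.44.

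*RET*, a receptor tyrosine kinase of nerve and gut development, was the other probe set past the threshold between H13 and C13. Its means ran 9.33, 9.41 and 9.78 in H10, C10 and L10 and 9.02, 8.27 and 8.70 in H13, C13 and L13. It was higher than in C13 in both H13 (0.75) and L13 (0.43), and it was lower at ED13 than at ED10 at each temperature. *PRR33* differed from it in both respects, and their within-group deviations over 48 embryos had r = 0.10.

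During ED7–10 no temperature contrast passed the threshold. H10 exceeded C10 by 0.24 with 15514807 (SE 0.13, 95% interval -0.01 to 0.50, limma adjusted p = 0.551) and by 0.21 with 15514810 (SE 0.13, limma adjusted p = 0.678), with 7 of 8 and 6 of 8 H10 embryos above the C10 mean, where 0.130% of probe sets passed. L10 and C10 differed by 0.05 and 0.06 (limma adjusted p = 0.975 and 0.974), with 95% intervals of -0.20 to 0.31 and -0.21 to 0.33, where 0% of probe sets passed. H10 exceeded L10 by 0.19 and 0.15 (limma adjusted p = 0.404 and 0.568), where 3.83% of probe sets passed. All H10 embryos stand in run 1 and all L10 embryos in run 2, so a run term rests on the control embryos alone, those of C13 included. With the run as a block, described without a test, H10 minus L10 turned to -0.12 with 15514807 and was 0.11 with 15514810. In the same fit with 15514807, H10 minus C10 was 0.09 and L10 minus C10 was 0.21. Means of runs 1 and 2 with 15514807 were 6.39 and 6.22 in C10 but 7.93 and 7.49 in C13. The order of H10 and L10 thus depended on the probe set and on a run term in which C13 had the larger gap. With 15514807 a two-sided exact permutation test of H10 against C10 gave an unadjusted p of 0.0261, where 9.3% of all probe sets had an unadjusted limma p under 0.05. Against the C10 embryos of its own run, H10 was higher by 0.16 (limma adjusted p = 0.804).

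**Figure D2:**
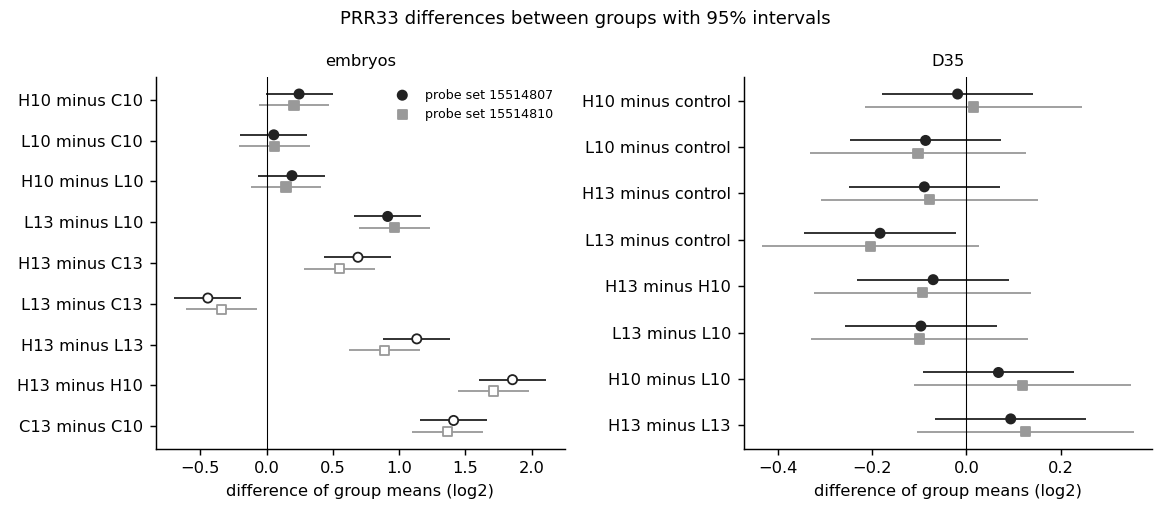
Differences of group means in log2 units (x axis) with 95% intervals for each contrast (y axis), with circles for probe set 15514807 and squares for 15514810. Open symbols mark contrasts that hold H13 or C13 arrays and were not tested. Their intervals are a description and cannot be read as a test, since the gene was chosen by the difference between H13 and C13. L13 minus L10 (0.91 and 0.97) is the only tested contrast past the threshold.

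The neighbours of *PRR33* did not behave as a block. Of the 10 genes listed on each side, 15 had a probe set with their symbol. Between L10 and L13, 6 of the 15 rose and 2 fell, where 9.76% of all probe sets rose and 15.2% fell. The median difference of the 15 was 0.16 against -0.03 over all probe sets. *TNNT3* rose from 10.82 ± 0.31 to 11.93 ± 0.17, a difference of 1.11 (SE 0.11, limma adjusted p = 1.3313e-10), and *TNNI2* from 9.53 ± 0.33 to 10.59 ± 0.24, a difference of 1.06 (SE 0.14, limma adjusted p = 4.6691e-08; SD, n = 8 each). These steps resembled that of *PRR33* in size on the log2 scale. *PRR33* was much dimmer, with means of 6.36 in L10 and 7.27 in L13 (15514807), so a like rise in RNA cannot be read from the sizes.

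*LSP1P1*, which overlaps *PRR33* in the gene table, had 11.39 ± 0.09 in L10 and 11.39 ± 0.12 in L13 (SD, n = 8 each), a difference of 0.00 (SE 0.06, limma adjusted p = 0.985). The step seen with the *PRR33* probe sets was 0.91 and 0.97. Which exons these probe sets cover, and on which strand relative to *LSP1P1*, is open. Whether they also read RNA of *LSP1P1* was not tested. On the far side of *TNNT3*, *IGF2*, the gene of an insulin-like growth factor, fell by 0.77 on the log2 scale (limma adjusted p = 1.9178e-05) and *MRPL23*, of the mitochondrial ribosome, fell by 0.20 (limma adjusted p = 0.0024). *CD81*, a tetraspanin, rose by 0.36, *CTSD*, the lysosomal protease cathepsin D, by 0.36, the phosphatase gene *DUSP8* by 0.27, and *IFITM10* by 0.61 (limma adjusted p = 5.1784e-11, 0.0079, 0.0030 and 0.0337). The 7 measured neighbours that did not pass include *LSP1P1*.

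Between H13 and C13, 5 of the 15 neighbours lay higher and 10 lower, with a median difference of -0.09. The difference was 0.15 for *TNNT3*, 0.15 for *TNNI2* and 0.04 for *LSP1P1*, against 0.69 and 0.55 for *PRR33*. Between L13 and C13 it was -0.06 for *TNNT3* and -0.03 for *TNNI2*, against -0.44 and -0.34 for *PRR33*. The largest neighbour value was that of *IFITM10*, which was lower by 0.68 in H13 (log2 difference -0.68). In H10 against C10, L10 against C10 and H10 against L10, 0 of 15 neighbours passed limma's adjusted threshold, and 1, 0 and 2 had an unadjusted p under 0.05, as 9.30%, 4.30% and 19.7% of all probe sets did.

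The step from L10 to L13 was shared with most sarcomere genes. Of 32 genes of the contractile apparatus, 26 rose and 2 fell between L10 and L13, where 9.76% of all probe sets rose and 15.2% fell. Their median difference was 0.89, against -0.03 over all probe sets, and close on the log2 scale to the 0.91 and 0.97 of the dimmer *PRR33*. *MYH1C*, a fast myosin heavy chain, rose by 4.86, *MYBPC1*, of slow myosin-binding protein C, by 1.72 and *MYOZ1*, a Z-disc protein of fast fibres, by 1.66, and *MYH15*, a myosin heavy chain, fell by 1.16. Among 26 cell cycle genes 0 rose and 21 fell. With the sarcomere mean as a covariate the *PRR33* step was 0.42 with 15514807 (SE 0.19, limma adjusted p = 0.124) and 0.64 with 15514810 (limma adjusted p = 0.0323), and the sarcomere mean itself differs between the days, with a range of 9.65 to 10.43 in L10 and of 10.80 to 11.19 in L13.

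Embryos of one group that had more *PRR33* also tended to have more sarcomere signal. After group means were removed, *PRR33* (15514807) correlated with the sarcomere mean over 48 embryos with r = 0.46 and Spearman's rho = 0.47 (permutation within groups, adjusted p = 0.0092 and 0.0266 over 26 correlations with 13 lists at both stages). All embryonic correlations with lists include the H13 and C13 embryos by whose difference the gene was chosen. Only deviations from the group means entered them, but they are not independent of that choice. For the sarcomere mean, r held its sign in each subset. This r was 0.32 without the 2 embryos farthest from the median, 0.23 in run 1 and 0.56 in run 2, and 0.29 with 15514810. All 32 sarcomere genes had r above 0 with 15514807, while with 15514810 *MYH15* (-0.06), *TPM1* (-0.04) and *MYH1E* (-0.02) lay below 0. With 15514807, the r with the sarcomere mean was 0.34 over the 24 ED10 embryos and 0.71 over the 24 ED13 embryos. At ED13 single genes reached 0.76 for *MYH7*, 0.72 for *MYL3*, 0.71 for *TNNI2* and 0.71 for *TTN*, the gene of the giant spring protein titin.

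Myogenic factors gave r = 0.37 and rho = 0.36 (permutation, adjusted p = 0.0441 and 0.0577), with r = 0.16 in run 1, 0.51 in run 2 and 0.37 without the 2 farthest embryos. The other 11 lists did not pass in embryos, among them the epidermis list with r = -0.24 (permutation, adjusted p = 0.327). Closest was endothelium, with r = 0.33 and rho = 0.39 (permutation, adjusted p = 0.123 and 0.0560). After quantile normalization, not tested, r was 0.52 for endothelium, 0.50 for the sarcomere mean and 0.43 for the myogenic factors.

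By gene, the patterns most like that of 15514807 over the 48 embryos, group means removed, were those of *MCU*, the mitochondrial calcium uniporter (r = 0.61), *VEGFA*, a growth factor of blood vessels (0.60), *TINAG*, a basement membrane protein (0.59), *ASB11* (0.57) and *UQCRFS1*, the Rieske subunit of respiratory complex III (0.56), followed by *KLHDC3*, *WNK2* and *GPR4*. Lowest were *CHST13*, a chondroitin sulfotransferase (-0.57), *MIRLET7G*, *RDH11* and *SCN8A*. For comparison, the 5th and 95th percentiles of r over 11527 genes were -0.30 and 0.31. With 15514810 the r of *MCU*, *VEGFA* and *TINAG* was only 0.22, 0.25 and 0.19, and that of *UQCRFS1* 0.52, so most of this order depended on which probe set was used.

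With group means kept in, *TINAG* followed *PRR33* most closely over all 48 arrays (r = 0.95), ahead of *MYPN* and *MYOZ1*, both of the Z-disc, *VEGFA* and *MLIP* (0.92 each). In the ED13 embryos *TINAG* ranged from 7.42 to 8.36 in H13, 6.75 to 7.82 in C13 and 6.40 to 7.57 in L13. These r mix the step between the days with the differences between embryos and are given as a description.

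At D35 *PRR33* lay near the top of the value scale. The 40 chickens lay between 12.78 and 13.47 with 15514807, where the 99th percentile of all values was 12.22, and 0 of 23 background probe sets had a higher mean. Whether signals near the top of the scale are compressed was not tested. The control chickens had 13.47, 13.30, 13.40 and 13.34 in series 1 and 13.42, 13.12, 13.41 and 13.44 in series 2. The H10 chickens had 13.34, 13.36, 13.29, 13.41, 13.32, 13.33, 13.40 and 13.31, the narrowest group.

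The L10 chickens had 13.12, 13.42, 13.38, 13.41, 13.40, 12.93, 13.25 and 13.29. The H13 chickens had 13.34, 12.91, 13.30, 13.34, 13.40, 13.24, 13.36 and 13.31. The L13 chickens had 13.37, 13.03, 13.02, 13.26, 13.35, 13.29, 12.78 and 13.32. Most chickens lay near the median of 13.33, and a few lay clearly lower, with 3 of the 8 L13 chickens at or below 13.03. The 2 probe sets followed each other closely at this stage (r = 0.96 within groups, n = 40), so the low chickens were low with both.

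**Figure D3:**
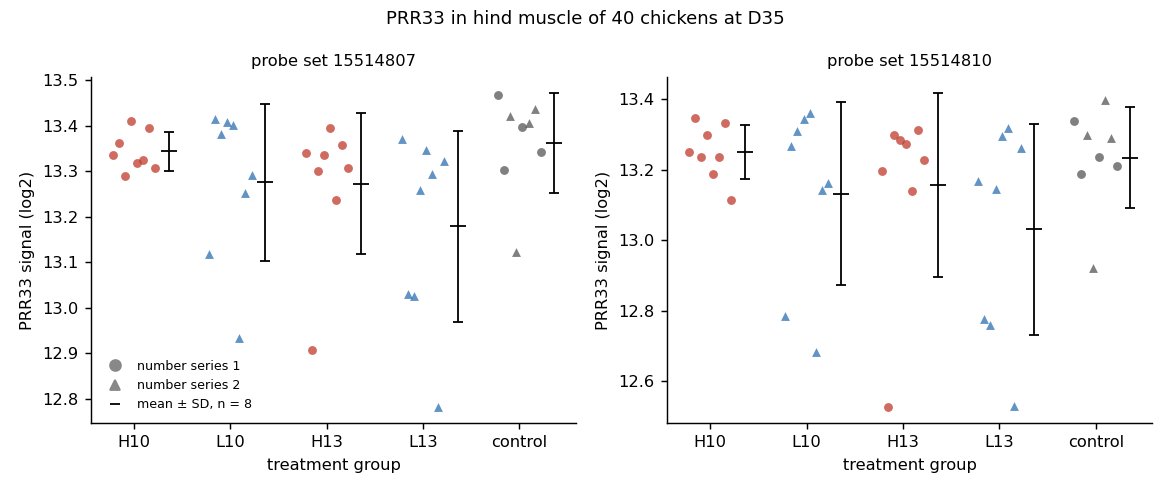
*PRR33* log2 signal (y axis) of 40 chickens at D35 by embryonic treatment (x axis), for each probe set, with circles for number series 1, triangles for series 2 and bars for the mean ± SD of 8 chickens. Group means lie between 13.18 (L13) and 13.36 (control) with 15514807, and the spread comes from a few low chickens such as the lowest L13 chicken at 12.78.

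Group means with 15514807 were 13.36 ± 0.11 in the controls, 13.34 ± 0.04 in H10, 13.28 ± 0.17 in L10, 13.27 ± 0.16 in H13 and 13.18 ± 0.21 in L13, and with 15514810 they were 13.23 ± 0.14, 13.25 ± 0.08, 13.13 ± 0.26, 13.16 ± 0.26 and 13.03 ± 0.30 (SD, n = 8 each). No neighbours in this order differed beyond their spread. In the 8 contrasts tested, 0 passed limma's adjusted threshold with either probe set, 1 and 0 had an unadjusted p under 0.05, and 1 and 0 did so by the exact permutation test.

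The contrast with the largest difference was L13 against the controls, -0.18 with 15514807 (SE 0.08, 95% interval -0.34 to -0.02, limma adjusted p = 0.322, exact permutation p = 0.0448) and -0.20 with 15514810 (SE 0.11, limma adjusted p = 0.466, exact permutation p = 0.0991), where 0.0145% of probe sets passed. An unadjusted limma p under 0.05 was common in this contrast, at 12.7% of all probe sets. With 15514807, 7 of 8 L13 chickens lay below the control mean. Against the 4 controls of its own series the difference was -0.17. The others lay closer to 0, with -0.09 for H13 (95% interval -0.25 to 0.07, 0.00483% of probe sets passed), -0.09 for L10 (-0.25 to 0.07, 0%) and -0.02 for H10 (-0.18 to 0.14, 0%).

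Contrasts between treated groups gave -0.07 for H13 against H10 (0.00483% passed), -0.10 for L13 against L10 (0%), 0.07 for H10 against L10 (0.222%) and 0.09 for H13 against L13 (1.45%), with limma adjusted p of 1, 0.719, 0.863 and 0.598. The H13 embryos thus carried the highest *PRR33* at ED13, while the chickens of that treatment lay 0.09 below the controls at D35, with an interval that holds 0.

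**Figure D4:**
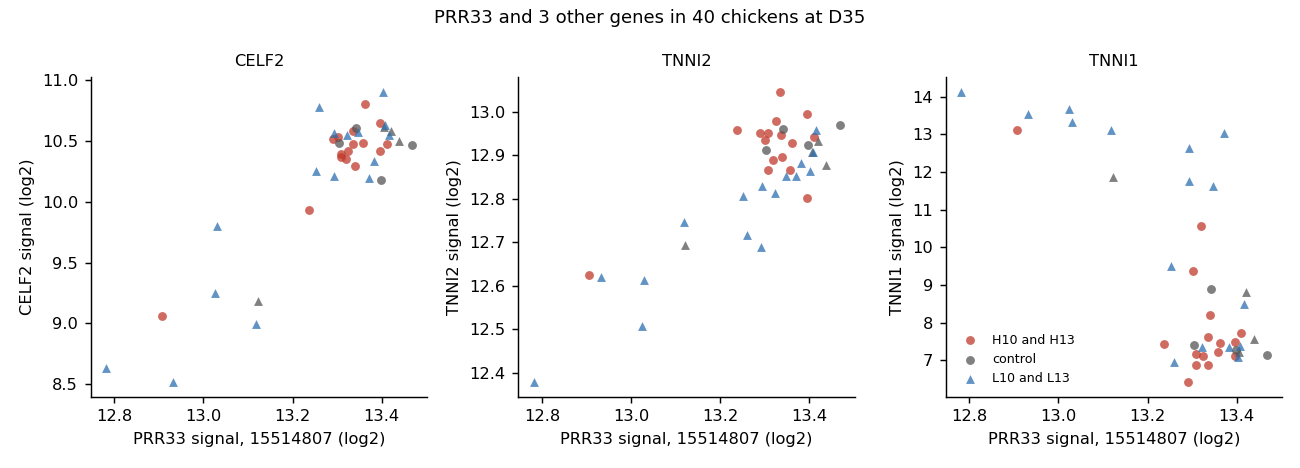
*PRR33* log2 signal (x axis, probe set 15514807) against that of *CELF2*, *TNNI2* and *TNNI1* (y axis of each panel) in 40 chickens at D35, with colours for warmed, control and cooled eggs and circles and triangles for number series 1 and 2. Chickens with low *PRR33* have low *CELF2* and *TNNI2* and high *TNNI1*, as the L13 chicken at 12.78 does (8.64, 12.38 and 14.13).

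Chickens of one group were next compared gene by gene. Closest to *PRR33* over the 40 chickens, group means removed, were *CELF2*, of an RNA-binding splicing regulator (r = 0.91), *MYBPHL*, of a relative of myosin-binding protein H (0.91), *FHOD3*, of a formin that builds actin filaments (0.88), *LARP1B* (0.86) and the fast troponin gene *TNNI2* (0.86), followed by *STYK1*, the amino acid transporter gene *SLC7A5* and *HDAC9*. Opposite were *SLC12A5*, a potassium-chloride cotransporter (-0.87), *NNT*, of a mitochondrial enzyme that makes NADPH, *CA3B* and *TBX10*. Over 11527 genes the 5th and 95th percentiles of r were -0.42 and 0.45, and the r of these genes with 15514810 were alike (0.93 for *CELF2*, 0.84 for *TNNI2*, -0.86 for *SLC12A5*).

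How far these correlations rested on few chickens was looked at in several ways. Spearman's rho was 0.78 for *CELF2*, 0.72 for *TNNI2* and -0.76 for *SLC12A5*. Without the 2 chickens farthest from the gene's median, r was 0.86, 0.81 and -0.85. Without the 7 chickens that had the lowest *PRR33*, r over the other 33 was 0.32 for *CELF2*, 0.52 for *MYBPHL*, 0.30 for *TNNI2* and -0.35 for *SLC12A5*. Leaving chickens out by their *PRR33* narrows its range and by itself lowers r, so this drop cannot decide the question. Of the 7, 3 were L13, 2 L10, 1 H13 and 1 a control, and 6 stood in series 2. Within series 1 and series 2 alone r was 0.84 and 0.94 for *CELF2* and 0.68 and 0.94 for *TNNI2*.

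The 32 sarcomere genes split in sign at D35. With *PRR33* rose, across chickens of one group, *TNNI2* (r = 0.86), *MYH1E* (0.82), a fast myosin heavy chain, *TMOD4* (0.80), which caps thin filaments in skeletal muscle, *TPM1* (0.78), the Z-disc gene *MYOZ1* (0.62) and *MYOM2* (0.66) of the M-band. Against it ran *MYL2* (r = -0.79) and *MYL3* (-0.46), light chains of slow and cardiac myosin, *TNNI1* (-0.71), the slow troponin I, *TNNC1* (-0.60), the slow and cardiac troponin C, *MYOM3* (-0.66), *MYBPC1* (-0.65), *CSRP3* (-0.57) and *MYOZ2* (-0.50). In all, 18 of 32 had r above 0 and 14 below, while over the ED13 embryos 31 had r above 0 and only *TPM1* (-0.30) lay below. The split did not follow fibre type throughout, since the fast myosin heavy chain genes *MYH1A* (-0.59), *MYH1C* (-0.39) and *MYH1B* (-0.26) ran against *PRR33*, while *ACTC1* (0.58), of cardiac actin, and *MYBPC3* (0.40), of cardiac myosin-binding protein C, ran with it. These genes were picked after their values were seen, and no test was made of the split.

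**Figure D5:**
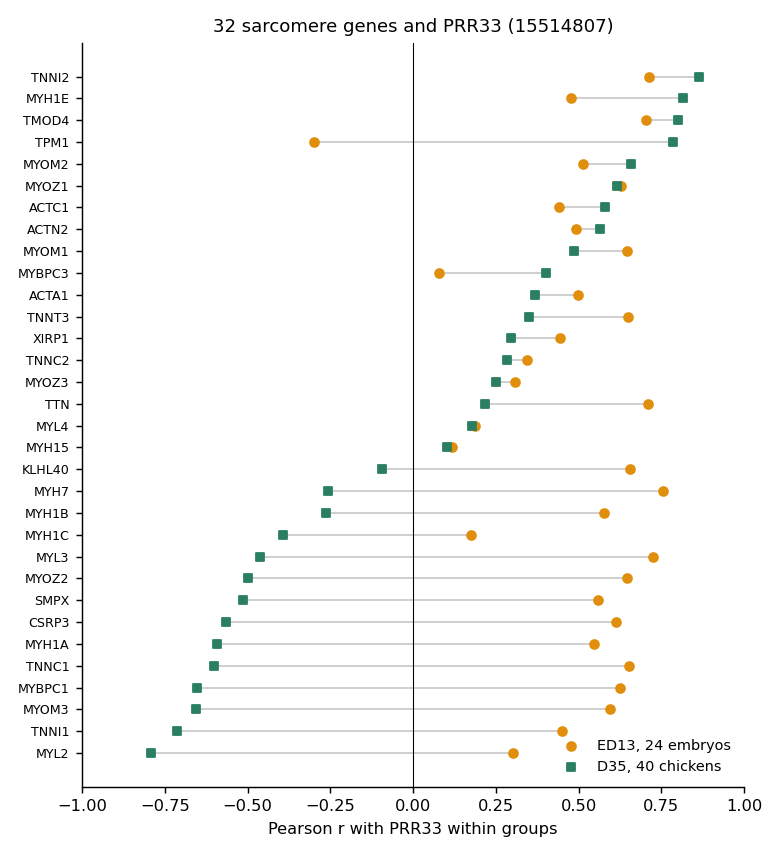
Pearson r with *PRR33* (x axis, probe set 15514807, group means removed) of each of 32 sarcomere genes (y axis, ordered by r at D35), with circles for 24 ED13 embryos and squares for 40 chickens at D35. At ED13 31 of 32 lie above 0, and at D35 they spread from -0.79 (*MYL2*) to 0.86 (*TNNI2*).

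The slow genes varied over a wide range at D35. *TNNI1* ranged from 6.42 to 14.13 with a median of 7.60. The chickens with the 4 lowest *PRR33* signals, at 12.78 (L13), 12.91 (H13), 12.93 (L10) and 13.02 (L13), had *TNNI1* at 14.13, 13.12, 13.54 and 13.66 and *TNNI2* at 12.38, 12.63, 12.62 and 12.51, against a *TNNI2* median of 12.89. The reverse did not always hold, since L13 chicken 6 had *TNNI1* at 13.04 with *PRR33* at 13.37. The r of *TNNI1* with *PRR33* was -0.69 without the 2 chickens farthest from its median, -0.73 in series 1, -0.71 in series 2 and -0.12 without the 7 chickens lowest in *PRR33*.

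*TNNT3*, the direct neighbour, had r = 0.35 at D35, which was 0.00 without the 2 farthest chickens, -0.24 in series 1 and 0.62 in series 2. Between L13 and the controls at D35 the values of *TNNT3* and *TNNI2* were -0.15 and -0.20 (limma adjusted p = 0.140 and 0.195), near the -0.18 of *PRR33*. In the 8 contrasts at D35, 0 of 15 neighbours passed limma's adjusted threshold. Those at an unadjusted p under 0.05 numbered between 0 (L13 against L10, where 8.02% of all probe sets had such a p) and 6 (H13 against L13, 16.5%), and 4 in L13 against the controls (12.7%).

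Means of whole lists followed the same chickens. The adipocyte mean (5 genes) correlated with *PRR33* at D35 with r = -0.65 and rho = -0.50 (permutation within groups, adjusted p = 0.0018 and 0.0266), -0.53 without the 2 farthest chickens, -0.51 in series 1 and -0.74 in series 2. All 5 genes had r below 0, led by *CD36* (-0.63), a fatty acid receptor that muscle fibres also carry, and *LPL* (-0.47), lipoprotein lipase, which muscle also makes, followed by *ADIPOQ* (-0.35), the adipocyte hormone adiponectin, *PPARG* (-0.34), a regulator of fat cell formation, and *PLIN1* (-0.22), of the coat of fat droplets. The sarcomere mean gave r = -0.55 and rho = -0.47 (permutation, adjusted p = 0.0095 and 0.0386), with -0.40 without the 2 farthest chickens. This does not hold for sarcomere genes in general, since 18 of the 32 had r above 0 and 14 below, with a median of 0.20. The genes that varied most within groups weigh most in the mean, and *MYL3*, *CSRP3* and *TNNI1* (SD 2.63, 2.39 and 2.08) ran against *PRR33*. The erythroid mean gave r = -0.37 and rho = -0.36 (permutation, adjusted p = 0.0323 and 0.0577), with -0.13 in series 1 and -0.70 in series 2. After quantile normalization r was -0.41 for the adipocyte mean, -0.29 for the sarcomere mean and -0.29 for the erythroid mean. At D35 only 2 of 5 adipocyte and 1 of 8 erythroid genes had a mean above the background 95th percentile, as 2236 of all 20706 probe sets did. The other 10 lists did not pass at D35. Among them, the r of the myogenic factors moved from 0.27 to 0.63 after quantile normalization, which was not tested, so this result depended on the normalization. In L13 against the controls, the sarcomere mean was 11.12 ± 0.41 against 10.57 ± 0.32 and the adipocyte mean 9.21 ± 0.34 against 8.76 ± 0.19 (SD, n = 8 each), with 0 of 32 and 0 of 5 genes past limma's adjusted threshold and 13 and 3 at an unadjusted p under 0.05, which 12.7% of all probe sets had. Of the 32 sarcomere genes 16 lay higher and 16 lower in L13 (median difference -0.0045), and the largest values were 4.24 for *CSRP3*, 3.91 for *MYL3*, 3.20 for *TNNI1* and 2.59 for *MYOM3* (limma adjusted p = 0.165, 0.213, 0.197 and 0.196). The higher mean thus rested on a few genes. With the sarcomere mean as a covariate the L13 difference of *PRR33* was -0.06 with 15514807 and 0.01 with 15514810. As that mean follows the widely varying genes, this cannot be read as an adjustment for the amount of muscle.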

How the data were processed

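Probe set values of hind muscle mRNA had been normalized by the authors and deposited on a log2 scale, per the submitters' processing notes with GCOS 1.1.1. The normalization method and the genome build of the array annotation are not given in the sources used here. The second table of log2 values held the same numbers (largest difference 0), and 0 arrays were identical. The 98 control probe sets were left out and the other 20706 were tested without a filter.

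With limma 3.58.1 (R 4.3.3) group means were fitted to the 48 embryo and, separately, the 40 D35 arrays, with eBayes and Benjamini-Hochberg adjustment within each contrast and a threshold of 0.05. Nothing says that D35 controls of C10 and C13 eggs differed in treatment. Correlations used deviations from group means, with 100000 permutations within groups. The limma fit and the permutation within groups were tested on simulated data. The gene, the 13 gene lists and the tests were chosen with earlier results of these data known. Named genes were *PRR33*, its measured neighbours among the 10 genes on each side, the 8 most and 4 least like it in each stage, the 5 most like it over all embryo arrays, and *RET*. List genes named beside these were picked with their values in view. The alternatives tried were other normalizations, filters, weights, controls, covariates, an exact permutation test and leaving out each array. The number of arrays limits the precision, and slaughter weight, a covariate in the study's methods, was not used here.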

Additional observations from a re-analysis of the deposited data

Results flagged for a closer look

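Each of 22 sets of 8 values (2 probe sets in 11 groups) was examined for 1 animal far from the other 7, which chance alone yields in about 1 in 20 sets. In the H13 chickens at D35, chicken 34 had a *PRR33* signal of 12.91 with 15514807 against 13.24 in the next lowest, a gap of 0.676 of the group's range. With 15514810 the same chicken had 12.53 against 13.14, a gap of 0.779 of the range. Its *TNNI1* signal was 13.12 and its *TNNI2* signal 12.63. In the D35 controls, chicken 70 had 12.92 with 15514810 against 13.19 in the next lowest, a gap of 0.560 of the range, and its *TNNI1* signal was 11.86.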

How the results depend on the processing

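The L13 minus L10 difference kept its direction and its call under every alternative run with 15514810 and under all but 1 with 15514807, where the sarcomere mean as a covariate gave 0.42 (limma adjusted p = 0.124). That covariate also gave 1.38 for H13 minus H10 and 0.94 for C13 minus C10. The run of animal numbers as a block gave 0.83 for H13 minus L13 and, with 15514807, turned H10 minus L10 from 0.19 to -0.12, where it also gave 0.09 for H10 minus C10, 0.21 for L10 minus C10 and -0.29 for L13 minus C13. This run term rests on the control embryos of both days, C13 included. The exact permutation test, unadjusted, gave p = 0.0261 for H10 minus C10 (0.24) and p = 0.0448 for L13 minus control at D35 (-0.18). The other changes of sign were in uncalled differences. With 15514807 they were 0.01 for H10 minus control at D35 after centring each array (0.0095), and with the sarcomere covariate -0.0089 for H10 minus L10 and -0.0133 for H13 minus L13 at D35. With 15514810 they were -0.0222 for L10 minus C10 with controls of the same run and, with the sarcomere covariate at D35, -0.0044 for H10, 0.0081 for L10 and 0.0132 for L13 minus control, 0.0051 for L13 minus L10, -0.0124 for H10 minus L10 and -0.0574 for H13 minus L13. The cause was not tested.

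Leaving out each array in turn gave 0.85 to 0.97 for L13 minus L10, 0.63 to 0.78 for H13 minus C13, -0.50 to -0.36 for L13 minus C13, 0.18 to 0.29 for H10 minus C10, -0.0060 to 0.11 for L10 minus C10 and -0.22 to -0.13 for L13 minus control at D35 with 15514807. With 15514810, L10 minus C10 ran from -0.0096 to 0.14, H10 minus control at D35 from -0.0295 to 0.0387, and H13 minus control from -0.12 to 0.0123, the last without H13 chicken 34. The within-run values of C13 minus C10 were added after the data were seen. No paired analysis was possible because the replicate numbers are animal numbers, and those shared between groups belong to different animals. In all 48 embryos, at ED10 and at ED13, both probe sets lay below the 95th percentile of the background control probe sets, and small embryonic differences are therefore uncertain. At D35 quantile normalization moved the correlation with the sarcomere mean from -0.55 to -0.29 and that with the adipocyte mean from -0.65 to -0.41. It moved that with the erythroid mean from -0.37 to -0.29 and that with the myogenic mean, which had not passed, from 0.27 to 0.63.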
